A study of Mus musculus with 6 samples.

Results

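Among the probes for tRNA-derived small RNAs (tsRNAs) on a mouse small RNA array, 29 of 1767 gave at least 2 times more signal in infarcted than in sham-operated heart when every array was considered. A probe was counted if its lowest signal on the 3 infarct (MI) arrays was at least 2 times its highest signal on the 3 sham arrays and if it was well above background on all 3 MI arrays. Signal here is the background-subtracted spot intensity with no scaling between arrays. The contrast between the groups therefore chose the probes, and all values of that contrast below describe them without testing them.

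The tissue was heart of male C57BL/6J mice aged 6 to 8 weeks, 3 days after surgery. MI animals had the left anterior descending coronary artery ligated, and the infarcted area was sampled. Sham animals had a string drawn through without ligation, and the matching region was sampled (n = 3 arrays each). All RNA was total RNA, labelled at its 3′ end with Cy3 after phosphates had been removed from that end, from 100 ng per array. The labels do not say that the 3 arrays of a group came from separate mice, so the spread between arrays may be partly technical. None of 13 marker genes of cardiomyocytes, fibroblasts, macrophages and endothelial cells was among the 46 named mRNA probes of the array, so the labelled tissue could not be checked. Since whole tissue was used, more cells of a type and more RNA per cell, or fewer and less, cannot be told apart.

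tsRNAs are pieces of transfer RNAs, the adaptors that bring amino acids to the ribosome. Under stress the ribonuclease angiogenin can cut a mature tRNA in its anticodon loop into a pair of long pieces, while shorter fragments come from either end of the tRNA or from the trailer of its precursor, and some of these are loaded into Argonaute proteins. Infarcted myocardium at this stage is losing heart muscle cells and is filled with inflammatory cells. Each probe carries an identifier of the form ASMM10SMR20TRF100004218TV1 and is written below by its class code and number, such as TRF100004218. The files pair no identifier with a tRNA, a fragment type or a sequence, so what each probe detects is not stated, and how many separate RNAs the 29 identifiers stand for is not known. Several identifiers may detect the same RNA, and signals of different probes are not comparable as amounts.

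In unscaled signal, the doubling was found in one direction. It held for 1.64% of tsRNA probes, for 16 of 9709 miRNA probes (0.165%) and for 7 of 2716 probes of the class coded PST, which the files do not expand (0.258%), and so for 52 of all 14192 small RNA probes (0.366%). With the groups exchanged, 0 of the 14192 met it in unscaled signal, and no such count was made on scaled signal. These shares are descriptions of unscaled signal, in which the MI arrays were on average the brighter ones. The classes also differed in signal and were not matched for it. Over tsRNA probes the group mean of the log2 75th percentile was 13.0 in MI and 12.8 in sham. Over all probes other than tsRNA probes it was 6.00 and 5.49. The 75th percentile of all probes was 68.7, 78.7 and 97.4 intensity units on MI 1 to 3 and 49.6, 43.0 and 83.0 on sham 1 to 3. The sham 3 array was thus brighter than MI 1 and MI 2. The mean log2 difference was 0.53, or 1.44-fold, with an exact two-sided permutation p of 0.3 (adjusted p = 0.6 over 2 comparisons of the arrays; the smallest p that 3 against 3 arrays allow is 0.1). Over tsRNA probes alone the difference in the 75th percentile was 0.17. The local background around the spots of the 29 probes was 11 to 12 units on each array, with a log2 difference of 0.02 between the groups (exact p = 1, adjusted p = 1).

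Relative to the brightness of each array, all 29 probes had a higher mean in MI, but fewer were doubled. After subtraction of each array's 75th percentile on the log2 scale, the difference between group means was 0.82 to 2.77 with a median of 1.41, against -0.17 for the other 1738 tsRNA probes. That all 29 were higher was fixed in advance. The rule kept each unscaled difference at a doubling or more, and this scaling lowered it by 0.53 on the log2 scale. By this scaling 12 tsRNA probes met the doubling, 11 of them among the 29. The count depended on the scale: it was 9 with scaling to the median, 27 after quantile normalization and 28 when RNAs that averaged 200 units or more set the scale, a setting chosen after the data were seen. In unscaled signal the median log2 difference of the other tsRNA probes was 0.50 below a mean signal of 1024 units and -0.16 above it. The 11 doubled with the 75th percentile were TRF100002926, TRF100004034, TRF100004098, TRF100004130, TRF100004218, TRF100004370, TRF100004946, TRF100005266, TRF100005310, TRF100005342 and TRF100007846. In 1 probe, TRF100006898, the groups overlapped after that scaling. In unscaled signal the groups were apart, with MI higher, in 13.8% of all tsRNA probes, and after scaling in 5.83%. In a limma fit over all 11974 small RNAs tested, scaled in this way, 21 of the 29 had an adjusted p under 0.05 and were higher in MI, where 0.309% of all RNAs tested were called higher. The fit used the contrast that chose the probes, so nothing is read from that count. It was 0 of 29 with slide as a block (22 at an unadjusted p under 0.05), 0 without MI 2 and 0 without sham 1 (28 unadjusted in each). Slide 1 held all 3 MI arrays and sham 1, and slide 2 held sham 2 and sham 3. Within slide 1 the lowest MI signal was 2.16 to 8.01 times that of sham 1 over the 29 probes, a range that the rule kept at 2 or above.

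Every one of the 29 probes was detected in sham heart. All 29 were well above background on all 6 arrays, so that no fold is a bound. The lowest sham signal of any of them was 17.2 units, on sham 2, where the lowest signal that the software called well above background was 5.00. Group means ran from 19.3 to 5501 units in sham and from 49.4 to 19305 units in MI. The ratio of the means was 2.56 to 9.89 with a median of 3.73. The ratio of the lowest MI to the highest sham signal was at least 3 in 14 probes, at least 4 in 7 and at least 5 in 4.

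Among tsRNA probes, most of the 29 lay between the dimmest and the brightest range of signal. Against all probes of the array most of them were bright. Their median mean signal was 457 units, and the 75th percentiles of the 6 arrays were 43.0 to 97.4. By mean signal over the 6 arrays (on the log2 scale), 3 of 618 tsRNA probes below 64 units were among the 29, 6 of 358 from 64 to 256, 9 of 194 from 256 to 1024, 3 of 110 from 1024 to 4096 and 8 of 127 from 4096 to 16384. That is 0.485% of the dimmest range and 6.30% of the range from 4096 to 16384. Above 16384 units none of 360 probes was included, and the largest ratio of lowest MI to highest sham signal there was 1.28. The 18 probes with a mean signal below 1024 units had ratios of group means of 2.56 to 9.89, with a median of 4.25. The 11 probes above that level had ratios of 2.57 to 7.88, with a median of 3.14.

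The 4 probes with the widest separation were TRF100004218, TRF100005310, TRF100005342 and TRF100005266. TRF100004218 gave 495, 678 and 596 units on MI 1 to 3 and 66.6, 54.7 and 57.6 on sham 1 to 3. Its group means were 590 ± 91.4 and 59.6 ± 6.23 (SD, n = 3 each), a ratio of 9.89, and its lowest MI value was 7.43 times its highest sham value. The highest sham value was that of sham 1, the array that shared the slide with MI. TRF100005310 gave 7294, 7777 and 8770 units in MI and 992, 1103 and 933 in sham. The 2 groups were each tight, with means of 7947 ± 752 and 1009 ± 86.4 (SD, n = 3 each), and the ratio of the means was 7.88. TRF100005342 gave 11664, 10669 and 12390 units in MI and 1719, 1813 and 1617 in sham, again with no overlap. Its means were 11574 ± 864 and 1717 ± 98.1 (SD, n = 3 each), a ratio of 6.74. TRF100005266 gave 403, 565 and 641 units in MI and 72.5, 73.4 and 71.8 in sham. Its sham values were the closest together of the 29 probes, at 72.6 ± 0.822, while MI was at 536 ± 121 (SD, n = 3 each), a ratio of 7.39.

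The values nearest the threshold left no gap between included and excluded probes. Just inside were TRF100006898, TRF100005422 and TRF100008410, with ratios of lowest MI to highest sham signal of 2.08, 2.02 and 2.01. Just outside were TRF100008414, TRF100004890 and TRF100005330, at 1.98, 1.97 and 1.97. TRF100008410 and TRF100008414 are next to each other in the list of identifiers and lay on both sides of the threshold. TRF100008410 gave 3598, 4348 and 5051 units in MI and 1497, 1767 and 1790 in sham, and TRF100008414 gave 3732, 4539 and 5277 in MI and 1604, 1860 and 1884 in sham. The ratio of the first to the second stayed between 0.934 and 0.964 on all 6 arrays. The threshold thus separated probes that moved together from array to array. TRF100006898 gave 1410, 1822 and 1428 units in MI and 565, 679 and 580 in sham.

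Many of the probes were neighbours in the list of identifiers. The numbers of the 1767 tsRNA identifiers ran from 100000000 to 100010066, and 69.4% of the steps between consecutive identifiers were 4. Sorted by number, 13 of the 29 probes stood next to another of the 29, in 6 runs: 5 pairs and 1 run of 3. What order the numbers follow is not stated in the files. The range from 100004000 to 100005500, marked off after the values were seen, held 18 of the 29 among 261 tsRNA probes (6.90%). Below it were 4 among 713 (0.561%) and above it 7 among 793 (0.883%). On the array surface the probes were scattered, from row 3 to row 188 of 192 and from column 7 to column 80 of 82. Within runs, spots lay 27.7 to 77.8 grid steps apart at the closest in 5 of the 6, and 6 steps apart in the run of TRF100004030 and TRF100004034.

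Of these runs, 3 repeated one pattern. They were TRF100004030 with TRF100004034, TRF100004094 with TRF100004098, and TRF100004126 with TRF100004130. TRF100004030 gave 992, 944 and 930 units in MI and 188, 287 and 306 in sham. TRF100004094 gave 812, 873 and 843 in MI and 163, 218 and 226 in sham. TRF100004126 gave 890, 913 and 875 in MI and 177, 247 and 294 in sham. In these first members the 3 MI arrays were nearly level, and sham 1 was the lowest sham array.

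The second members differed between MI arrays. TRF100004034 gave 1100, 811 and 1347 units in MI and 167, 210 and 216 in sham. TRF100004098 gave 945, 717 and 1165 in MI and 132, 165 and 170 in sham. TRF100004130 gave 958, 758 and 1270 in MI and 152, 188 and 206 in sham. All 3 had MI 2 as their lowest and MI 3 as their highest MI array, and their coefficients of variation in MI were 24.7%, 23.8% and 25.9%, against 3.37%, 3.62% and 2.09% in the first members. The ratios of group means were 5.49, 6.06 and 5.47 in the second members and 3.67, 4.17 and 3.73 in the first.

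The third identifier of each series, which was not doubled, had a shape of its own. TRF100004038 gave 539, 474 and 608 units in MI and 278, 580 and 451 in sham, TRF100004102 gave 488, 448 and 597 in MI and 251, 458 and 389 in sham, and TRF100004134 gave 504, 451 and 560 in MI and 287, 542 and 497 in sham. In each of them sham 2 was the highest sham array and overlapped with MI. The 9 probes thus fell into 3 shapes by their place in the series, and each shape was seen in 3 stretches of the list.

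The likeness of shapes was measured within the groups, on deviations from the group means. The rule set the lowest MI against the highest sham signal, so the spread within groups entered the choice of the 29 as well. For each pair of probes, the log2 signals were centred on the mean of each group, and the distance was the root of the summed squared differences divided by the 4 degrees of freedom. Over all pairs of the 1767 tsRNA probes the median distance was 0.35 and the 5th percentile 0.11. These pairs hold 618 probes with a mean signal below 64 units, of which 3 are among the 29, so they give the scale of the measure only. Over the 406 pairs of the 29 probes the median was 0.25. The second members of the 3 series were 0.016 to 0.055 apart, the first members 0.071 to 0.11 and the third identifiers 0.076 to 0.087. Within a run, the first and second members were 0.27 to 0.30 apart. Some probes outside the series were closer to the first members. The nearest was TRF100006178 for TRF100004094 and TRF100000543 for TRF100004126, each at 0.055, while for TRF100004030 it was TRF100004126. These distances come from unscaled signal, so differences in brightness between the 6 arrays entered the deviations of all probes. The distances carry no test.

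Further pairs with like values lay 32 to 80 numbers apart, and these were picked after the values were seen. TRF100005310 and TRF100005342 are 32 numbers apart, and the second gave 1.37 to 1.73 times the signal of the first on every array. The identifiers before them, TRF100005306 and TRF100005338, were at a ratio of 1.34 to 1.47, and those after them, TRF100005314 and TRF100005346, at 1.5 to 1.79. TRF100005306 gave 119, 162 and 376 units in MI and 59.2, 72.7 and 90.7 in sham, with MI 3 well above the other MI arrays. TRF100005338 had the same order, at 173, 229 and 538 in MI and 86.9, 102 and 122 in sham. TRF100005314 and TRF100005346 overlapped between the groups. Only the middle identifier of each series met the rule. TRF100005306 and TRF100005338 had ratios of group means of 2.95 and 3.02 and no overlap between the groups. Their ratios of lowest MI to highest sham signal were 1.32 and 1.43.

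TRF100002926 and TRF100002970, 44 numbers apart, formed another pair. TRF100002926 gave 356, 543 and 474 units in MI and 85.3, 88.0 and 96.1 in sham. TRF100002970 gave 513, 727 and 628 in MI and 123, 140 and 147 in sham. In both, MI 2 was the highest MI array and sham 3 the highest sham array, and their distance was 0.072. Other tsRNA probes were closer to each of them. By distance from TRF100002926, TRF100002970 ranked 15 among all other tsRNA probes, and the nearest, TRF100001632, was at 0.020. By distance from TRF100002970, TRF100002926 ranked 13. The flanking identifiers were less alike: TRF100002922 and TRF100002966 were 0.21 apart, and TRF100002930 and TRF100002974 0.13. The identifiers directly before and after them had ratios of lowest MI to highest sham signal of 0.77 to 1.01.

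TRF100004866 and TRF100004946, 80 numbers apart, stood out by their sham arrays. TRF100004866 gave 19485, 16738 and 21691 units in MI and 3353, 6408 and 2313 in sham. TRF100004946 gave 8204, 7954 and 10323 in MI and 993, 1984 and 749 in sham. In both, sham 2 was far above sham 1 and sham 3, with coefficients of variation in sham of 52.9% and 52.7%, the highest of the 29 probes. The next identifiers, TRF100004870 and TRF100004950, shared that feature more strongly, with 3695, 11825 and 3048 units in sham for the first and 1356, 5654 and 1134 for the second. In MI these gave 17713, 16038 and 24861 units and 8341, 7758 and 13373 units. Their groups did not overlap, but sham 2 kept their ratio of lowest MI to highest sham signal at 1.36 and 1.37.

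The runs of brighter probes were more even. TRF100005418 gave 14375, 14653 and 16902 units in MI and 4486, 5125 and 4997 in sham. Its neighbour TRF100005422 gave 7618, 8418 and 10972 in MI and 2945, 3769 and 3702 in sham. TRF100005482, 64 numbers above the first, gave 8748, 9594 and 11038 in MI and 2718, 3056 and 3092 in sham, a distance of 0.046 from TRF100005418. The identifier after it, TRF100005486, missed the threshold with 4019, 4925 and 6915 in MI and 1631, 2170 and 2086 in sham. In all 4 the MI arrays stood in the same order, with MI 3 the highest. The neighbours TRF100005418 and TRF100005422 were 0.125 apart, while TRF100005482 was 0.048 from TRF100008318, 2836 numbers above it.

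The run of 3 was TRF100008318, TRF100008322 and TRF100008326. TRF100008318 gave 10080, 10535 and 13036 units in MI and 3891, 4638 and 4558 in sham. TRF100008322 gave 12585, 12969 and 16298 in MI and 4826, 5440 and 4849 in sham. TRF100008326 gave 14101, 13658 and 16670 in MI and 5063, 6110 and 5331 in sham. The 3 kept distances of 0.059 to 0.083 from each other, sham 2 was the highest sham array in each, and their ratios of group means were 2.57, 2.77 and 2.69. Probes outside the run were closer to TRF100008318 and to TRF100008326. The nearest were TRF100002358, at 0.038, and TRF100004666, at 0.054. For TRF100008322 the nearest was TRF100008326. The identifiers on both sides of the run, TRF100008316 and TRF100008330, gave ratios of lowest MI to highest sham signal of 0.84. Their mean signals were 12773 and 127172 units. No tsRNA probe with a mean signal above 16384 units had such a ratio over 1.28.

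The last run joined probes of unequal ratio. TRF100004370 gave 175, 251 and 220 units in MI and 31.2, 25.5 and 39.3 in sham, a ratio of group means of 6.73. TRF100004366, directly before it, gave 43.6, 54.1 and 50.5 in MI and 20.1, 17.2 and 20.4 in sham, a ratio of 2.56. Its mean signal was the lowest of the 29 probes, and it was the 1 probe lost when the signal of sham 3 was taken before its correction across the slide. The remaining 6 probes, TRF100001026, TRF100002838, TRF100005354, TRF100007846, TRF100007862 and TRF100006898, stood alone in the list and had ratios of group means of 2.56 to 4.34. Of these, TRF100001026 gave 526, 624 and 645 units in MI and 156, 179 and 222 in sham. TRF100007846 gave 180, 218 and 237 in MI and 46.8, 42.1 and 57.4 in sham, and TRF100007862, 16 numbers above it, gave 143, 181 and 199 in MI and 54.3, 56.8 and 66.6 in sham. In these 3 probes MI 1 was the lowest MI array and sham 3 the highest sham array. TRF100002838 gave 90.5, 121 and 106 in MI and 32.3, 28.5 and 39.9 in sham. TRF100005354 gave 94.0, 101 and 124 in MI and 38.6, 27.3 and 40.3 in sham. In both of these sham 2 was the lowest array.

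Directly before or after one of the 29 stood 57 identifiers, of which 13 were themselves among the 29. The other 44 had, below the limit of 2 that their exclusion set, a median ratio of lowest MI to highest sham signal of 0.94, with a range of 0.59 to 1.98. In 17 of the 44 (38.6%) every MI value was above every sham value, against 12.4% of the 1738 tsRNA probes outside the 29. A ratio of at least 1.5 was reached by 5 of the 44 (11.4%) and by 38 of the 1738 (2.19%). The 1738 include the 44, and signal levels were not matched. Over all tsRNA probes, every MI value was above every sham value in 54 of 618 below 64 units and in 9 of 360 above 16384. Between these it was 82 of 358 up to 256, 51 of 194 up to 1024, 25 of 110 up to 4096 and 23 of 127 up to 16384. Neighbours were chosen by number alone, but their likeness to the 29 was looked at with the values known, and no test was made.

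Within the groups, the order of the arrays was set beside that in the other tsRNA probes. By the 75th percentile of all probes, MI 1 was the dimmest and MI 3 the brightest MI array, and sham 2 the dimmest and sham 3 the brightest sham array. MI 1 was the lowest MI array in 20 of the 29 and MI 3 the highest in 19; in the other 1738 tsRNA probes these shares were 75.3% and 56.9%. In sham, sham 1 was the lowest array in 18 of the 29 (62.1%), and sham 2 was the lowest in 62.6% of the other tsRNA probes. The median ratio of sham 2 to sham 1 was 1.14 in the 29. In the other tsRNA probes it varied with mean signal and was 0.768 below 64 units. There it was 1.01 from 64 to 256, 1.09 from 256 to 1024 and 1.05 from 1024 to 4096. From 4096 to 16384 it was 0.992, and above that 0.950. Sham 3 gave a median of 1.03 times the signal of sham 2 in the 29, against 1.35 times in the others. That ratio depended on signal: it was 1.63 in other tsRNA probes with a mean signal below 1024 units and 1.14 in those above, and 1.09 and 0.892 in the 29 below and above that level. The rule bounded the highest sham array, so a probe in which sham 3 stood far above the others needed higher MI signals to be included.

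The shapes of the 29 were also seen in other tsRNA probes. For 8 of them the tsRNA probe with the smallest distance, of all 1766 others, was another of the 29, and for 21 it was a probe outside. The 29 made up 1.64% of all tsRNA probes, and the difference in share was not tested. Among the 29, the nearest probes included TRF100004098 for TRF100004034 and TRF100004946 for TRF100004866, at distances of 0.016 and 0.085. For TRF100008410 the nearest was TRF100008414, outside the 29, at 0.011.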

How the data were processed

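Total RNA from 6 heart samples was hybridised to 6 one-colour arrays. The authors deposited, for each array, linear spot intensity (from Agilent Feature Extraction 11.0.1.1, as the submitters' processing notes state). Background subtraction with spatial detrending is recorded per the file headers, as is a further correction of sham 3 alone across its slide; no scaling between arrays was applied. Each tsRNA probe had 1 spot, none of the spots of the 29 probes was flagged as an outlier or saturated, and arrays give no counts, so the number of arrays limits precision.

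Membership used log2 signal without scaling. The members and lists were chosen with earlier results of these data known. For limma 3.58.1 (R 4.3.3; lmFit, eBayes, Benjamini-Hochberg), signals were scaled to each array's 75th percentile, outlier spots were left out and RNAs well above background on at least 3 arrays were tested. The fit was tested on simulated data. Probes named were the 4 with the widest separation, 3 on each side of the threshold and all in runs; others were named after their values were seen. No member needed naming for being undetected in sham. Brightness and local background were compared by exact permutation. Parent tRNAs and sequences were not used here. Alternatives tried were other scalings, background corrections, folds, detection flags, slide or replicate number as a block, array weights and each array left out.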

Additional observations from a re-analysis of the deposited data

How the results depend on the processing

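The number of doubled tsRNA probes, 29, depended on the scale between arrays: it was 12 with 75th percentile scaling and 9 with median scaling, of which 11 and 8 were among the 29. It was 67, 14 and 7 with a fold of 1.5, 3 and 4, 135 for a doubling of group means, 111 against sham 1 alone (slide 1), and 29 to 80 over single arrays left out, with 80 without sham 2 and 44 without MI 1. Fewer arrays or a lower fold can only add probes. Quantile normalization (27), normexp with an offset of 50 (23), the uncorrected signal (29) and, chosen after the data were seen, scaling to the median of RNAs that averaged 200 units or more (28) moved it less. The limma count of tsRNAs higher in MI, 26, was 16 with median scaling, 53 with quantile normalization, 49 with normexp, 93 with array weights, 0 with the slide block (32 at an unadjusted p under 0.05) and 0 to 68 over single arrays left out (0 without MI 2 or sham 1, 16 without MI 3, 68 without sham 2). For the 29 probes the count of 21 was 13 with median scaling, 0 with the slide block and 0 to 24 over single arrays left out, and their differences were positive in every fit run. That sign was fixed in advance without scaling, with 75th percentile or median scaling and with single arrays left out. The rule kept each unscaled difference at a doubling or more, which is above the differences in brightness. For all of these counts the cause was not tested. With replicate number as a block, limma called 37 tsRNAs and 25 of the 29; arrays of the same number had deviations that correlated at 0.118, -0.221 and 0.159, so no pairing is read from the numbers. The difference in local background turned to -0.0214 over all tsRNA probes and ranged from -0.011 to 0.062 over single arrays left out, all with exact p of 0.4 or more. The difference in brightness stayed positive, at 0.33 to 0.81, over single arrays left out.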
